A study of Mus musculus with 8 samples.

Results

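The tumor suppressor p53 is a transcription factor that is stabilized after DNA damage and other stresses. The kinases Atm, Atr and Chek2 signal the damage, Mdm2 and Mdm4 restrain p53, and its targets stop the cell cycle, repair DNA or start apoptosis. A cell that stays arrested through Cdkn1a or the INK4 inhibitors of the Cdkn2a and Cdkn2b locus can become senescent. Such lasting responses are known in irradiated normal tissue, and the 4T1 line itself is known to lack functional p53.

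The list described here was chosen by gene name, with earlier results of these data known. It holds 43 p53 targets, damage signaling and repair genes and cell cycle inhibitors. Of these, 39 had a probe set that listed exactly 1 gene symbol, out of 19937 genes represented in this way, and a gene with several probe sets was read from its brightest one on average. The annotation given with the data lists no probe set for Trp53, Bax or Gdf15. For Cdkn1a, the CDK inhibitor p21, the probe set lists more than 1 symbol. These 4 genes were not analysed here.

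Signals came from 8 tumors, each on 1 Affymetrix Mouse Gene 1.0 ST array. All tumors arose from 4T1, a carcinoma line of the mouse mammary gland, placed orthotopically in BALB/c mice and grown for 18 days. In 4 tumors (preirradiated) the fourth mammary gland had received a single local X-ray dose of 20 Gy before the cells were implanted, and in the other 4 (nonirradiated) it had not. The cells themselves were implanted after the irradiation, so the comparison asks how tumors differ when the host bed was irradiated beforehand. The labels do not give the interval between irradiation and implantation, the age or sex of the mice, or whether the tumors came from different mice, so p-values measure the spread between these tumors. RNA was taken from whole tumor tissue. Each signal therefore averages over tumor cells and host cells, and fewer cells of a type and less RNA per cell cannot be told apart. Values are log2 signals from robust multi-array averaging (RMA), given as mean ± SD over 4 tumors of a group unless single tumors are listed, and differences are preirradiated minus nonirradiated on the same log2 scale.

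Epithelial markers were present in every tumor. Krt8 lay between 12.45 and 12.63, Krt18 between 11.80 and 12.03, and Epcam between 9.07 and 10.16. All 6 epithelial markers listed were higher on average in preirradiated tumors, with a median difference of 0.244. Their list means overlapped, at 9.84 to 10.28 against 9.74 to 9.90. The part of epithelial content in the values of the 39 genes was not tested. For scale, 95% of 1027 olfactory receptor genes, which a mammary tumor is not known to use, had a mean signal of at most 5.47. Preirradiated tumors 1 and 3 stood apart from all others in skeletal muscle markers, with means over 12 markers of 9.19 and 10.49 against 6.05 to 6.34 in the other 6 tumors. Tumor 1 was also highest in 7 adipocyte markers, at 7.72 against 5.99 to 6.4. Without these 2 tumors the difference changed sign in 15 of the 39 genes, and values without them are given beside the genes they were highest in and the largest differences.

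Sites that resemble the p53 recognition sequence are shown for those analysed genes whose promoter holds one. The letters searched were those of the p53 half-site, a motif of 10 bases that reads the same on both strands. RefSeq promoter windows (GRCm38.p6, 250 bases before to 50 after a start) were found for 31 of the 39 genes, and 8 of these (25.8%) held at least 1 half-site, against 9.55% of 27025 genes in all. Each line gives 30 bases in the direction of the gene, with the half-site in capitals.
Mdm2 (chr10:117710925-117710954, minus strand): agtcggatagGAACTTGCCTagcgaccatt
Ppm1d (chr11:85311112-85311141, plus strand): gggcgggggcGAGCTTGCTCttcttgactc
Ccng1 (chr11:40755452-40755481, minus strand): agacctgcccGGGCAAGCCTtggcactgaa
Gadd45a (chr6:67037428-67037457, minus strand): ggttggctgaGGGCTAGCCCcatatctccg
Aen (chr7:78895927-78895956, plus strand): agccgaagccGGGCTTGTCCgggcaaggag
Ei24 (chr9:36797325-36797354, minus strand): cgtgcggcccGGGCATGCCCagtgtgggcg
Sesn1 (chr10:41887256-41887285, plus strand): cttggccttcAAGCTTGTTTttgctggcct
Polk (chr13:96519399-96519428, minus strand): catgtagcttGAACTAGCCTcaaacttatt

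A full p53 site is a pair of half-sites side by side. With at most 1 of 20 letters off, such a pair was found in 1 of the 31 genes (3.23%), Ccng1, and in 0.0814% of all genes. It begins 195 bases before the start of Ccng1, and it is shown in capitals within 120 bases of the promoter (chr11:40755417-40755536, minus strand), from 250 to 131 bases before the start.
Ccng1: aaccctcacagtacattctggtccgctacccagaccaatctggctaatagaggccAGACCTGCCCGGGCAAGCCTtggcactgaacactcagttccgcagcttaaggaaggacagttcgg
A match of letters is a description of the window and no evidence that p53 binds there. The 8 genes with a half-site differed between the groups by -0.089 (Ppm1d) to 0.094 (Ccng1), and 0 of these 8 passed an unadjusted p of 0.05.

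No gene of the set was called different between tumors of preirradiated and nonirradiated beds once all probe sets were taken into account. With limma, 0 of 39 genes passed a Benjamini-Hochberg adjusted p of 0.05 (0% of all genes), and their smallest adjusted p was 0.851. The design text of the study asks for a log2 change of 0.4 or more together with p up to 0.05 before adjustment, read here in either direction. This filter was passed by 0 of 39, against 0.487% of all genes. At an unadjusted p under 0.05, 0 of 39 were higher and 1 was lower, Chek2. Over all genes 2.39% were higher and 3.27% lower at this threshold. The count of 1 in 39 is no larger than the background share would give.

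The differences were small in either direction. Of the 39 genes, 17 were higher on average and 22 lower in preirradiated tumors, and the differences ran from -0.17 (Trp53inp1, 0.89-fold) to 0.19 (Phlda3, 1.14-fold). The median difference was -0.024, beside -0.004 over all genes. The 95% intervals of the differences show what change these tumors could still hide. All 39 intervals lay within a change of 1.5-fold either way, a limit set after the values were seen, and 96.9% of all genes met the same limit. The widest bounds were -0.51 for Trp53inp1 and 0.51 for Gadd45b. Within groups, the SD of a gene over 4 tumors had a median of 0.106 in nonirradiated and 0.122 in preirradiated tumors, against 0.075 and 0.078 over all genes. The median size of a difference between group means was 0.058, against 0.042 over all genes. The genes thus varied more than the median gene both within and between groups, but genes were not matched for signal. Of the 39, 38 had a mean above that of 95% of olfactory receptor genes, and RMA understates changes near background.

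**Figure D1:**
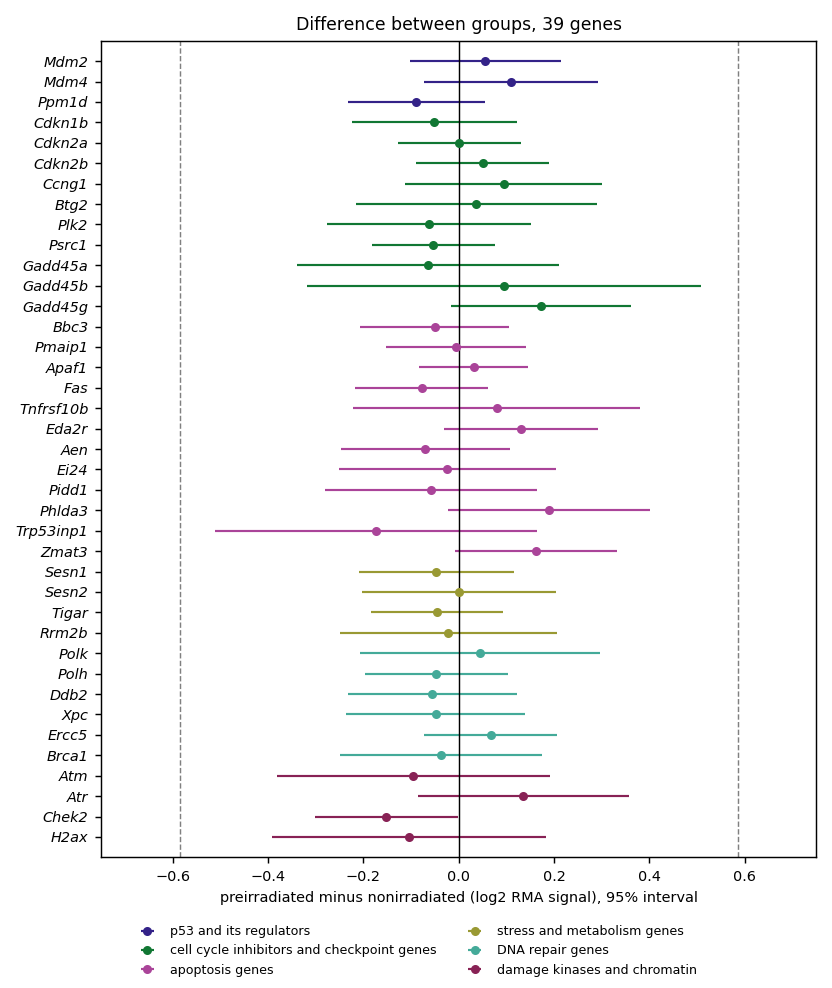
Difference between preirradiated and nonirradiated tumors for 39 genes, ordered by role. The horizontal axis is the difference in log2 RMA signal, points are differences of group means (n = 4 each), bars are 95% intervals from limma, and dashed lines mark a change of 1.5-fold; no interval reaches a dashed line, and the interval of Chek2 is the one that does not include 0.

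The regulators of p53 were close to equal in both groups. Mdm2, the ubiquitin ligase that marks p53 for degradation and is itself a p53 target, measured 8.70, 8.64, 8.87 and 8.70 in nonirradiated tumors 1 to 4. In preirradiated tumors 1 to 4 it measured 8.86, 8.73, 8.66 and 8.88. The groups overlapped throughout, and the difference was 0.056 (95% interval -0.102 to 0.214). Mdm4, a relative of Mdm2 that binds and inhibits p53, was 8.60 ± 0.14 against 8.49 ± 0.10. Ppm1d, the phosphatase Wip1 that switches damage signaling off, was 8.64 ± 0.08 against 8.73 ± 0.11. None of the 3 passed an unadjusted p of 0.05 by limma.

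Cell cycle inhibitors of the INK4 and KIP families showed no difference larger than their spread. Cdkn2a, which encodes p16 and p19Arf and is widely used as a marker of senescence, measured 6.26, 6.35, 6.32 and 6.30 in nonirradiated tumors 1 to 4. It measured 6.28, 6.24, 6.26 and 6.47 in preirradiated tumors 1 to 4. One preirradiated tumor, number 4, lay above all others and the remaining 3 lay among the nonirradiated tumors or below them. The group means were 6.31 in both, with a 95% interval of the difference from -0.128 to 0.13. Its neighbour Cdkn2b, which encodes p15, was 6.51 ± 0.05 against 6.46 ± 0.11. Cdkn1b, which encodes p27, was 9.65 ± 0.10 against 9.70 ± 0.13 by its main probe set. A second probe set of Cdkn1b varied more, from 7.32 to 8.03 in nonirradiated and from 7.03 to 7.96 in preirradiated tumors, and its difference was -0.136 (95% interval -0.616 to 0.344).

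Among the p53 targets that slow the cell cycle, single tumors differed more than the groups did. Ccng1, cyclin G1, whose promoter holds the full site printed above, was 10.60, the highest value, in preirradiated tumor 3 and 10.18, the lowest, in preirradiated tumor 4. The nonirradiated tumors lay between 10.20 and 10.41, and the difference was 0.094 (95% interval -0.113 to 0.30). Without preirradiated tumors 1 and 3 it was -0.036, and without preirradiated tumor 4 it was 0.173. Btg2, an antiproliferative cofactor of transcription, was 7.88 and 7.77 in preirradiated tumors 1 and 3, above the nonirradiated range of 7.48 to 7.68, but 7.43 and 7.42 in preirradiated tumors 2 and 4, below it. Its difference of 0.036 became -0.163 without tumors 1 and 3. These are the tumors high in skeletal muscle markers, and the part of those cells in the Ccng1 and Btg2 values was not tested. Plk2, a polo-like kinase, was 7.38 ± 0.20 against 7.44 ± 0.05. Its difference of -0.063 was -0.15 without preirradiated tumors 1 and 3, and 0.0311 without preirradiated tumor 4. Psrc1, a spindle protein, was 6.13 ± 0.05 against 6.18 ± 0.10.

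The 3 Gadd45 genes encode small stress proteins that bind cell cycle and repair factors and activate stress kinases, and they did not move in parallel. Gadd45g measured 6.90, 6.87, 7.09 and 6.88 in nonirradiated tumors 1 to 4. In preirradiated tumors 1 to 4 it measured 7.14, 6.90, 7.16 and 7.23. All preirradiated tumors except number 2 lay above all nonirradiated tumors. The difference was 0.172 or 1.13-fold (95% interval -0.0169 to 0.361), with a limma p of 0.0691 and an exact two-sided permutation p of 0.0857 (n = 4 each), neither adjusted. It was 0.129 without preirradiated tumors 1 and 3. Without nonirradiated tumor 3 it was 0.224, and without preirradiated tumor 2 it was 0.242. In these 2 leave-outs of 1 tumor it passed an unadjusted p of 0.05 by limma, and in no other. Gadd45b had the widest spread of the 39 genes in both groups, 8.39 ± 0.27 against 8.30 ± 0.32. It was high in preirradiated tumor 1 (8.74) and nonirradiated tumor 3 (8.69) and low in nonirradiated tumors 1 and 2 (8.03 and 8.04). Its difference of 0.094 was -0.0223 without preirradiated tumor 1 and -0.119 without preirradiated tumors 1 and 3. Gadd45a was highest in nonirradiated tumor 2, at 10.27, and otherwise lay between 9.65 and 9.95.

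**Figure D2:**
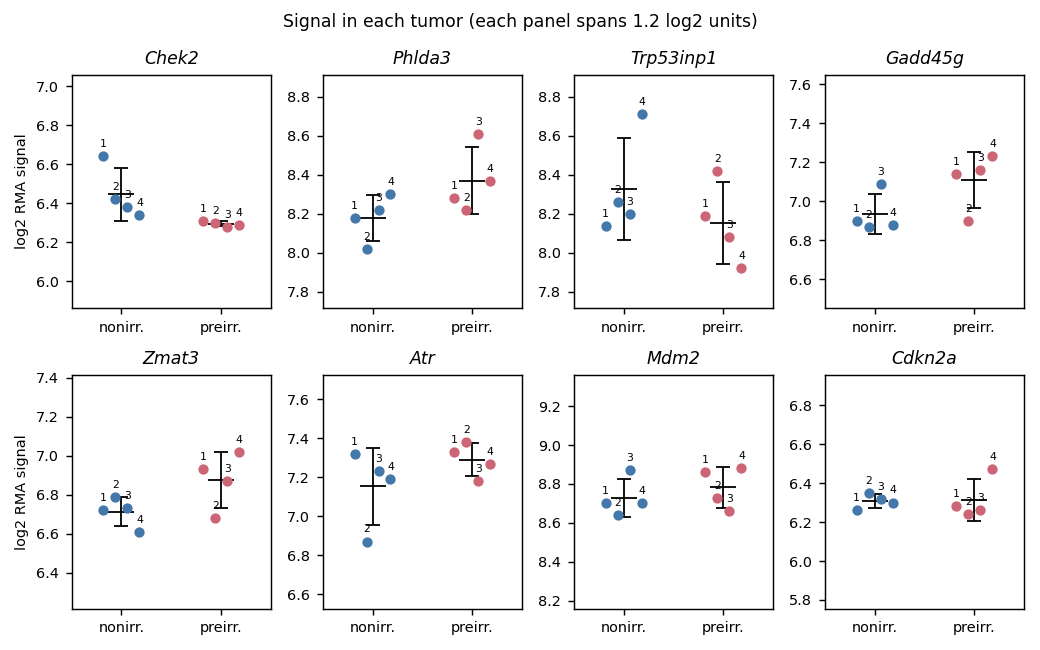
Log2 RMA signal of 8 genes in each tumor (vertical axis, every panel spanning the same number of log2 units), with tumors numbered 1 to 4, nonirradiated tumors in blue and preirradiated in red, and bars giving mean ± SD (n = 4 each). Chek2 is the gene of these 8 whose groups do not overlap; the other 7 overlap, and in Gadd45g preirradiated tumor 2 sits at 6.90 among the nonirradiated tumors.

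Of 12 genes that promote or tune apoptosis, 5 were higher on average and 7 lower, and 0 had an unadjusted p under 0.05. Phlda3, an inhibitor of the survival kinase Akt and a p53 target, measured 8.18, 8.02, 8.22 and 8.30 in nonirradiated tumors 1 to 4. It measured 8.28, 8.22, 8.61 and 8.37 in preirradiated tumors 1 to 4. Tumors 3 and 4 of the preirradiated group lay above all nonirradiated tumors and tumors 1 and 2 lay within their range. This was the largest positive difference of the set, 0.189 or 1.14-fold (95% interval -0.0232 to 0.401), with a limma adjusted p of 0.873 and an exact two-sided permutation p of 0.143. It was 0.114 without preirradiated tumors 1 and 3, and 0.11 without tumor 3 alone. Without preirradiated tumor 2 it was 0.238 and passed an unadjusted p of 0.05 by limma.

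Zmat3, an RNA-binding zinc finger protein induced by p53, measured 6.72, 6.79, 6.73 and 6.61 in nonirradiated tumors 1 to 4. The preirradiated tumors measured 6.93, 6.68, 6.87 and 7.02. All but tumor 2 lay above the nonirradiated range, with a difference of 0.162 (95% interval -0.00883 to 0.332), a limma adjusted p of 0.856 and an exact two-sided permutation p of 0.114. The difference was 0.226 without preirradiated tumor 2, 0.115 without preirradiated tumor 4, 0.127 without nonirradiated tumor 4 and 0.135 without preirradiated tumors 1 and 3. Trp53inp1, a p53-induced protein of autophagy and cell death, went the other way on average. It measured 8.14, 8.26, 8.20 and 8.71 in nonirradiated tumors 1 to 4 and 8.19, 8.42, 8.08 and 7.92 in preirradiated tumors 1 to 4. The difference of -0.174 was -0.0448 without nonirradiated tumor 4, -0.0947 without preirradiated tumor 4 and -0.158 without preirradiated tumors 1 and 3.

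Death receptors gave no common direction. Eda2r, a receptor of the tumor necrosis factor family and a p53 target, measured 4.95, 4.96, 4.99 and 4.92 in nonirradiated tumors 1 to 4. The preirradiated tumors measured 5.01, 5.04, 5.31 and 4.99. Its groups did not overlap, although the nearest pair both rounded to 4.99, and tumor 3 carried most of the difference of 0.131 (exact two-sided permutation p = 0.0286, unadjusted, the smallest that 70 assignments can give; limma p = 0.101). Without preirradiated tumor 3, which was highest in skeletal muscle markers, it was 0.057, and the part of muscle in the value was not tested. Eda2r is also the 1 gene of the 39 with a mean within the range of 95% of olfactory receptor genes. Tnfrsf10b, the TRAIL receptor, was 9.18 ± 0.23 against 9.10 ± 0.20, with its highest value, 9.50, in preirradiated tumor 1. Its difference of 0.08 was -0.0255 without that tumor and -0.016 without preirradiated tumors 1 and 3. Fas, a death receptor of immune and epithelial cells, was 5.77 ± 0.11 against 5.85 ± 0.06.

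The mitochondrial and nuclear arms of apoptosis were as flat. Bbc3 and Pmaip1, the BH3-only proteins Puma and Noxa, were 6.31 ± 0.06 against 6.36 ± 0.13 and 5.97 ± 0.10 against 5.98 ± 0.09. Apaf1, the scaffold of the apoptosome, was 9.01 ± 0.05 against 8.98 ± 0.08. Pmaip1 and Apaf1 were highest in preirradiated tumor 1, and without preirradiated tumors 1 and 3 they differed by -0.0154 and -0.0157. Aen, an apoptosis-enhancing nuclease, was 6.84 ± 0.12 against 6.91 ± 0.12, and Ei24, a membrane protein of the endoplasmic reticulum, was 9.73 ± 0.15 against 9.76 ± 0.16. Pidd1, a death-domain protein that activates caspase-2, was 6.71 ± 0.19 against 6.77 ± 0.10, with preirradiated tumor 4 at 6.99 and the other preirradiated tumors between 6.58 and 6.65.

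Stress and metabolism targets had the smallest differences of any role. Sesn1 and Sesn2, the sestrins that restrain the growth kinase complex mTORC1, differed by -0.047 and 0.0011. Tigar, a phosphatase that slows glycolysis, differed by -0.046, and Rrm2b, a ribonucleotide reductase subunit that supplies nucleotides for repair, by -0.022. Rrm2b was lowest in preirradiated tumor 3, at 5.83, and lay between 6.09 and 6.29 in the other 7 tumors. Over the 4 genes the interval bounds ran from -0.25 to 0.21.

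DNA repair genes gave the same picture, with 2 higher and 4 lower on average and differences from -0.055 to 0.067. Polk and Polh, polymerases that copy past lesions, were 7.58 ± 0.21 against 7.53 ± 0.14 and 8.12 ± 0.12 against 8.17 ± 0.07. The Polk difference of 0.045 was -0.0409 without preirradiated tumor 1, where Polk was highest, and -0.0421 without preirradiated tumors 1 and 3. Ddb2 and Xpc, which recognise bulky lesions in nucleotide excision repair, were 7.18 ± 0.13 against 7.23 ± 0.11 and 7.42 ± 0.10 against 7.47 ± 0.15. Ercc5, a nuclease of the same pathway, was 7.16 ± 0.09 against 7.09 ± 0.09. Brca1, which acts in homologous recombination, was 6.71 ± 0.03 against 6.75 ± 0.20. Its nonirradiated spread came from tumor 1, at 7.04, and the other 7 tumors lay between 6.59 and 6.75.

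Among the damage kinases Chek2 stood out as the gene with the smallest limma p of the set. Chek2, a kinase activated by Atm that phosphorylates p53, measured 6.64, 6.42, 6.38 and 6.34 in nonirradiated tumors 1 to 4. It measured 6.31, 6.30, 6.28 and 6.29 in preirradiated tumors 1 to 4. All preirradiated tumors lay below all nonirradiated tumors. The SD was 0.01 in preirradiated and 0.14 in nonirradiated tumors. Much of the nonirradiated spread came from tumor 1, at 6.64 beside 6.34 to 6.42 in the others. The difference was -0.152 or 0.90-fold (95% interval -0.302 to -0.00147), with a limma p of 0.0483 and an adjusted p of 0.851, and the exact two-sided permutation p was 0.0286, unadjusted (n = 4 each). Without nonirradiated tumor 1 the difference was -0.0853, and without preirradiated tumors 1 and 3 it was -0.153. The unadjusted limma call was lost without that tumor, without nonirradiated tumor 2 and without any 1 of the 4 preirradiated tumors. Groups that did not overlap were found in 1 of 39 genes on the lower side, Chek2, and in 1 on the higher side, Eda2r, against 1.95% and 1.7% of all genes.

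Nonirradiated tumor 1 was also the highest of all 8 tumors in Atm and H2ax. Atm, the kinase that senses double-strand breaks, was 8.35 there and 7.77 to 8.11 elsewhere, and its difference of -0.095 was 0.0177 without that tumor. H2ax, the histone variant phosphorylated around breaks, was 9.74 there, 9.73 in preirradiated tumor 4 and 9.20 to 9.53 in the other 6. Its difference was -0.104, and it was -0.03 without nonirradiated tumor 1 and -0.208 without preirradiated tumor 4. Without preirradiated tumors 1 and 3 it was 0.0065. Atr, the kinase of stalled replication forks, measured 7.32, 6.87, 7.23 and 7.19 in nonirradiated and 7.33, 7.38, 7.18 and 7.27 in preirradiated tumors 1 to 4. The difference of 0.135 rested on the low nonirradiated tumor 2 and was 0.0402 without it, while it was 0.169 without preirradiated tumors 1 and 3.

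High and low values were spread over tumors of both groups. Nonirradiated tumor 1 was the highest of 8 tumors in 8 genes, among them Atm, Chek2, H2ax and Brca1, and the lowest in 6. Nonirradiated tumor 2 was lowest in 8 genes and highest in 4. In the mean of 8 proliferation markers, nonirradiated tumor 1 was highest, at 9.84 against 9.42 to 9.66 in the other tumors. The part of proliferation in the values of the 39 genes was not tested. Preirradiated tumor 4 was highest in 9 genes and lowest in 7. Preirradiated tumor 1, the tumor high in muscle and fat markers, was highest in 7 and lowest in 6. The median deviation of the 39 genes from their own means over 8 tumors ran from -0.044 to 0.015 over the tumors, beside -0.018 to 0.012 over all genes.

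**Figure D3:**
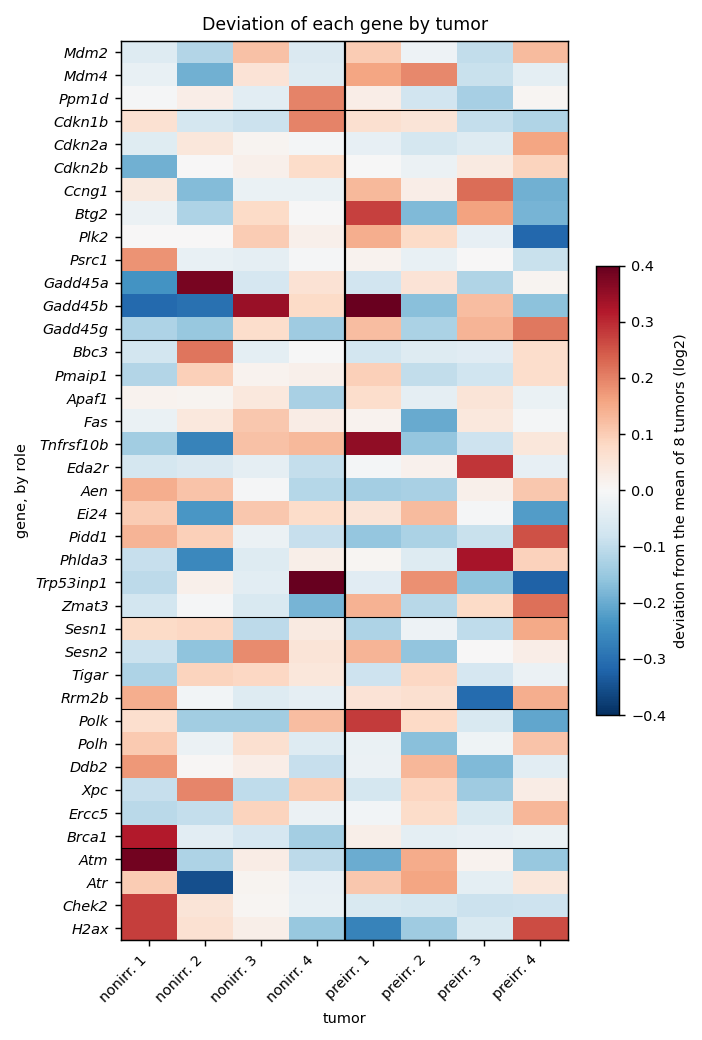
Deviation of each of 39 genes (rows, grouped by role) from its mean over 8 tumors (columns, nonirradiated left of the vertical line and preirradiated right of it), in log2 units from blue (lower) to red (higher), with the colour scale ending at 0.4 on either side. High values sit in single tumors, such as Atm, Brca1 and Chek2 in nonirradiated tumor 1 and Trp53inp1 in nonirradiated tumor 4, and no block of genes is red or blue across all tumors of a group.

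Other genes of the p53 pathway were listed separately. Of 33 measured, 0 were higher and 2 lower at an unadjusted p under 0.05, where 2.39% and 3.27% of all genes were, and 0 passed the study's filter or the adjusted threshold, with a median difference of -0.022. Bak1, a pore-forming effector of mitochondrial apoptosis, measured 10.39, 10.22, 10.14 and 10.19 in nonirradiated and 9.92, 10.09, 10.05 and 10.03 in preirradiated tumors 1 to 4. All preirradiated tumors lay below all nonirradiated tumors, by a difference of -0.214 (limma adjusted p = 0.763). It was -0.179 without preirradiated tumors 1 and 3 and then missed the unadjusted threshold. Bid, the BH3-only protein that links death receptors to Bak1 and Bax, measured 8.40, 8.32, 8.28 and 8.18 in nonirradiated and 7.88, 8.19, 8.07 and 8.15 in preirradiated tumors 1 to 4. Only preirradiated tumor 2 overlapped the nonirradiated range. The mean was 8.07 ± 0.14 against 8.29 ± 0.09, a difference of -0.226 (limma adjusted p = 0.809). It was -0.128 without those tumors, and the unadjusted call was lost. Macrophage markers were also lower on average, in 8 of 8 measured, with list means of 10.32 to 10.52 against 10.47 to 10.65. T and NK cell markers were lower in 9 of 9, at 6.10 to 6.69 against 6.49 to 7.15. The part of these cells in Bak1 and Bid was not tested.

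In the wider damage signaling and repair list, 1 of 27 genes was higher and 0 lower at an unadjusted p under 0.05, against 2.39% and 3.27% of all genes, so the count is near the background. Lig4, the ligase of nonhomologous end joining, measured 6.87, 6.98, 6.98 and 7.0 in nonirradiated and 7.04, 7.18, 7.11 and 7.02 in preirradiated tumors 1 to 4. It was 7.08 ± 0.07 against 6.96 ± 0.06, without overlap and 1.09-fold higher (limma adjusted p = 0.828). Its unadjusted call was lost without nonirradiated tumor 1 or 3 or preirradiated tumor 2 or 3, without preirradiated tumors 1 and 3 together, and under 3 other ways of processing given in the closing section. Ercc1, a nuclease subunit of excision repair, was 10.58 ± 0.07 against 10.67 ± 0.02 and did not pass, but passed without preirradiated tumor 2, at -0.126. Ercc1 also passed with each array centred on its median (-0.125) and with array weights (-0.102). Of 9 further INK4, KIP and RB pathway genes 0 passed, and those with the smallest p values, the pocket proteins Rbl1 and Rbl2, differed by -0.0751 and -0.0462.

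Senescent cells are known to secrete cytokines, proteases and their inhibitors. Of 25 measured genes of that kind and of other senescence markers, 12 were higher and 13 lower on average, with a median of -0.004, and 3 passed the study's filter, all higher, against 0.487% of all genes in either direction. The list was chosen with earlier results of these data known. Timp1, an inhibitor of matrix metalloproteinases, measured 10.14, 10.05, 10.60 and 10.23 in nonirradiated and 10.74, 10.54, 10.86 and 10.64 in preirradiated tumors 1 to 4. The groups overlapped at 1 preirradiated tumor, number 2, and the difference was 0.439 or 1.36-fold (limma adjusted p = 0.736). It fell under the size limit of the filter without nonirradiated tumor 2 (0.37) or preirradiated tumor 3 (0.385). Mmp10, stromelysin 2, measured 6.63, 6.93, 7.16 and 7.02 in nonirradiated and 7.78, 7.62, 7.65 and 7.03 in preirradiated tumors 1 to 4. All preirradiated tumors except number 4 lay above the nonirradiated range. The mean was 7.52 ± 0.33 against 6.93 ± 0.22, or 1.5-fold (limma adjusted p = 0.763), and it passed whichever 1 tumor was left out. Mmp3, stromelysin 1, named after its values were seen, measured 8.23, 8.11, 8.49 and 8.37 in nonirradiated and 8.89, 8.29, 9.01 and 8.63 in preirradiated tumors 1 to 4. All preirradiated tumors except number 2 lay above the nonirradiated range. The mean was 8.70 ± 0.32 against 8.30 ± 0.17, or 1.32-fold (limma adjusted p = 0.828), and it missed the filter without nonirradiated tumor 1 or 2 or preirradiated tumor 1 or 3, at 0.304 to 0.381.

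These 3 are also products of fibroblasts, whose markers were higher in 8 of 9 measured, with list means of 9.35 to 9.70 in preirradiated against 9.05 to 9.27 in nonirradiated tumors. Without preirradiated tumors 1 and 3, the differences were 0.336 for Timp1, 0.393 for Mmp10 and 0.161 for Mmp3, and none then passed the filter. The part of fibroblast content in these values was not tested.

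**Figure D4:**
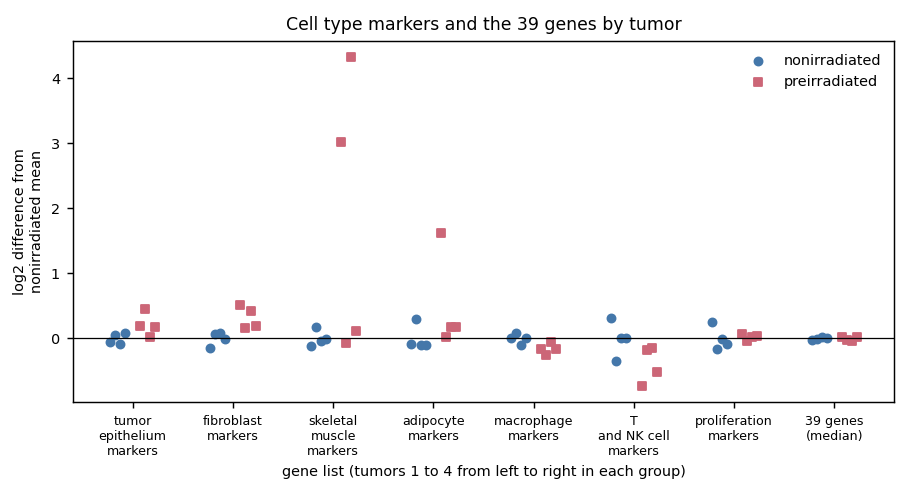
Mean log2 signal of cell type and proliferation markers in each tumor, and the median deviation of the 39 genes at the right, all as log2 differences from the nonirradiated mean (vertical axis); circles are nonirradiated and squares preirradiated tumors, numbered 1 to 4 from left to right. Skeletal muscle markers are highest in preirradiated tumors 1 and 3, whose mean signals before the nonirradiated mean was subtracted were 9.19 and 10.49. The median over the 39 genes, which lie on both sides of their means in every tumor, is near 0.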

How the data were processed

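Total RNA of 8 tumors was measured on 1 array each. The deposited log2 values per probe set were made by the authors with RMA (background correction, quantile normalization across arrays, log2 summary), per the series' design text, which names affy of Bioconductor 2.4; R 2.15.3 is listed in the processing notes of the submitters. Which chip description file was used was not given. RMA makes the arrays alike and understates changes near background, and the number of arrays limits the precision.

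Groups came from the titles. limma 3.58.1 in R 4.3.3 (lmFit, eBayes, two-sided) was fitted to 34738 of 34760 probe sets, those with a mean of at least 4.0, with Benjamini-Hochberg adjustment over all of them. Shares of all genes are over 19937 genes, each with its highest probe set. Exact permutation tests used all 70 assignments. Gene names came from the platform annotation. The members, lists and tests were chosen with earlier results of these data known. Every tumor's value is printed for members with an unadjusted p under 0.05, for the 6 largest differences, and for Mdm2 and Cdkn2a; Eda2r and Mmp3 were added after their values were seen. Of each further list the 2 genes with the smallest p are named. The fit was tested on simulated data. Alternatives covered the expression limit, variance model, normalization, array weights, replicate number as a block, probe set choice and left-out tumors.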

Additional observations from a re-analysis of the deposited data

Results flagged for a closer look

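A tumor far from the other 3 of its group, with a gap to its nearest neighbour above Dixon's 95% critical value for 4 samples, was found for 6 gene values and 4 marker means among the 98 groups of 4 examined. Chance alone gives about 1 in 20. Cdkn2a was 6.47 in preirradiated tumor 4 and 6.24 to 6.28 in the other 3. Pidd1 was 6.99 in the same tumor and 6.58 to 6.65 in the others. Eda2r was 5.31 in preirradiated tumor 3 and 4.99 to 5.04 in the others. In the nonirradiated group, Psrc1 was 6.33 in tumor 1 (others 6.12 to 6.15), Gadd45g was 7.09 in tumor 3 (others 6.87 to 6.90) and Ei24 was 9.51 in tumor 2 (others 9.82 to 9.85). Adipocyte markers had a mean of 7.72 in preirradiated tumor 1 (others 6.12 to 6.28) and 6.4 in nonirradiated tumor 2 (others 5.99 to 6.01). B cell markers had a mean of 5.86 in nonirradiated tumor 4 (others 5.20 to 5.28), and in preirradiated tumor 4 their mean of 5.28 lay just above the other 3, which were all at 5.25.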

How the results depend on the processing

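In all 18 alternatives the study's filter called 0 of the 39 genes, as did the adjusted threshold. The count at an unadjusted p under 0.05, 1 gene, was 0 with a mean of at least 5.0 and 0 with a trended robust variance model. It ranged from 0 to 3 when 1 tumor was left out. Without preirradiated tumor 2 it was 3: Gadd45g (0.242), Zmat3 (0.226) and Phlda3 (0.238), all higher in preirradiated tumors. Without nonirradiated tumor 3 it was 2, Chek2 (-0.174) and Gadd45g (0.224). Without preirradiated tumor 4 it was 2, Ccng1 (0.173) and Pidd1 (-0.152). It was 0 when either of tumors 1 and 2 of the nonirradiated or 1 and 3 of the preirradiated group was absent. With the replicate number as a block the count stayed at 1 gene, but that gene was Phlda3 (0.189) and no longer Chek2. Bid (-0.226) also lost its unadjusted call with this block. Same-numbered tumors did not deviate together (correlations of -0.289 to -0.0752). The labels do not say whether the numbers pair the tumors. These correlations cannot settle it, because the deviations also hold differences in tissue content between single tumors. Lig4 (0.127) lost its unadjusted call with a trended robust variance model, with a further quantile normalization (0.105) and with each array centred on its median (0.0934). Array weights also gave 1 gene, Zmat3 (0.162). Chek2 kept its direction throughout and lost its unadjusted call in 11 of 18 alternatives. The median difference of -0.024 ran from -0.034 to 0.001 when 1 tumor was left out and became -0.058 with each array centred on its median, where the median of all genes was -0.038 and 14 genes were higher and 25 lower. Of the 702 single-gene values, 52 changed sign without passing in either setting, and 1 did so while passing: Btg2, at -0.163 without both preirradiated tumors 1 and 3. Another 8 values, in 5 genes, newly passed an unadjusted p of 0.05 in the same direction as in the main fit. The largest difference under any alternative was 0.264 in size, that of Trp53inp1 (-0.264) without preirradiated tumor 2. The 4 tumors per group and whole-tissue RNA limit what could be seen, and changes confined to few cells would be diluted. Depth does not apply to arrays.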
